A study of Mus musculus with 2 samples.

Results

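The nuclear factor I (NFI) family was followed in single nuclei of the newborn mouse cerebellum. Its members were taken by symbol, Nfia, Nfib, Nfic and Nfix, and made up 4 of the 32285 genes counted in each library. All 4 passed the minimum of 20 unique molecular identifiers (UMIs, 1 per captured transcript) over both libraries. There was 1 library per group, each from 12 pooled cerebella of mice at postnatal day 1. The control library came from Cre-negative littermates labelled Tox3f/f, and the other came from Nestin-cre;Tox3f/f mice (conditional knockout, cKO). The floxed Tox3 allele was shared by both genotypes. Nestin-cre acts in neural precursors and their progeny, so microglia and vessels are not its targets.

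NFI proteins are transcription factors that bind DNA as dimers of any of the family's members, at a palindrome of which each side reads TTGGC. In the embryonic nervous system NFIA and NFIB take part in the switch of radial precursors from making neurons to making glia. In the cerebellum the family is known for its role in granule neurons, the small excitatory neurons that arise from dividing granule neuron progenitors (GNPs) in the external granule layer. There NFI acts in axon extension, inward migration and dendrite formation, and later in the switch to mature receptor genes. Bergmann glia guide the migrating granule neurons, and Purkinje cells are the large inhibitory output neurons of the cortex.

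After filtering, 4667 control nuclei and 6555 nuclei of the other library remained, with 20556295 and 30195360 UMIs. Nuclei were clustered, and 21 of 25 clusters were named from marker genes with the ending "-like". None of the 4 NFI genes (0 of 4) was among the 3000 variable features of either library, so the classes were drawn without them. Clusters 1 and 4 were shallow, with joint medians of 619 and 572 UMIs in the control library and the library labelled cKO, and made up 21.7% and 10.4% of nuclei. Nuclei with an Xist UMI numbered 2192 and 4147. Those with Y-linked UMIs and no Xist UMI numbered 1418 and 1460, so by these raw counts the sex mix of the pools differed. Of the barcodes, 9 occurred in both libraries. Tox3 was not lower in the second library, at 103 and 118 CPM in all nuclei (UMIs scaled to 1000000 UMIs of the same nuclei) and at 250 and 551 in GNP-like nuclei. A count from the 3′ end can still read transcripts that lack a deleted exon, so it does not check the genotype, and the second library is called the library labelled cKO. With 1 library per group no test of genotype was possible. Every interval is a 95% interval for counting error and says nothing of differences between animals.

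The 2 long genes gave most of the family's signal. Nfia (ENSMUSG00000028565; GRCm38, chr4:97772734-98118874, plus strand) and Nfib (ENSMUSG00000008575; chr4:82290173-82705750, minus strand) lie on the same chromosome. Nfix (ENSMUSG00000001911; chr8:84699876-84800344, minus strand) and Nfic (ENSMUSG00000055053; chr10:81396186-81455635, minus strand) lie apart. In all control nuclei Nfia had 28094 UMIs and Nfib 36695, against 2933 for Nfix and 605 for Nfic. Per kilobase of gene, the control level in GNP-like nuclei was 12.6 CPM for Nfia, 10.6 CPM for Nfib, 3.17 for Nfix and 1.32 for Nfic. The order of Nfia and Nfib turned over in GN-like nuclei, at 4.12 and 4.61 CPM per kilobase. Nuclear counts from the 3′ end do not scale strictly with length, so this scale is only a rough one between genes.

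Among the 9 classes all 4 genes were highest in GNP-like nuclei, in both libraries. Single clusters of other classes stood above that class average, namely cluster 13 (GABAergic interneuron-like) for Nfix in both libraries and clusters 13 and 8 (GN-like) for Nfib in control, as given with those clusters. Nfia stood at 4363 CPM (4273 to 4454) in the 515 control GNP-like nuclei and at 4236 (4044 to 4435) in the 116 of the library labelled cKO. Nfib stood at 4409 (4319 to 4500) and 6179 (5947 to 6418), Nfix at 318 (294 to 343) and 445 (384 to 512), and Nfic at 78.4 (66.8 to 91.5) and 120.4 (89.9 to 158). Bergmann glia-like nuclei came next for Nfia (1983 and 2055), Nfib (2485.5 and 2405.5) and Nfix (256 and 298). The lowest class was Purkinje cell-like for Nfia and Nfix in both libraries. In control the highest class exceeded the lowest 22.2-fold for Nfia (20.4 to 24.2), 21.0-fold for Nfib (19.4 to 22.9), 13.1-fold for Nfix (10.2 to 16.9) and 5.47-fold for Nfic (3.87 to 7.87).

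**Figure D1:**
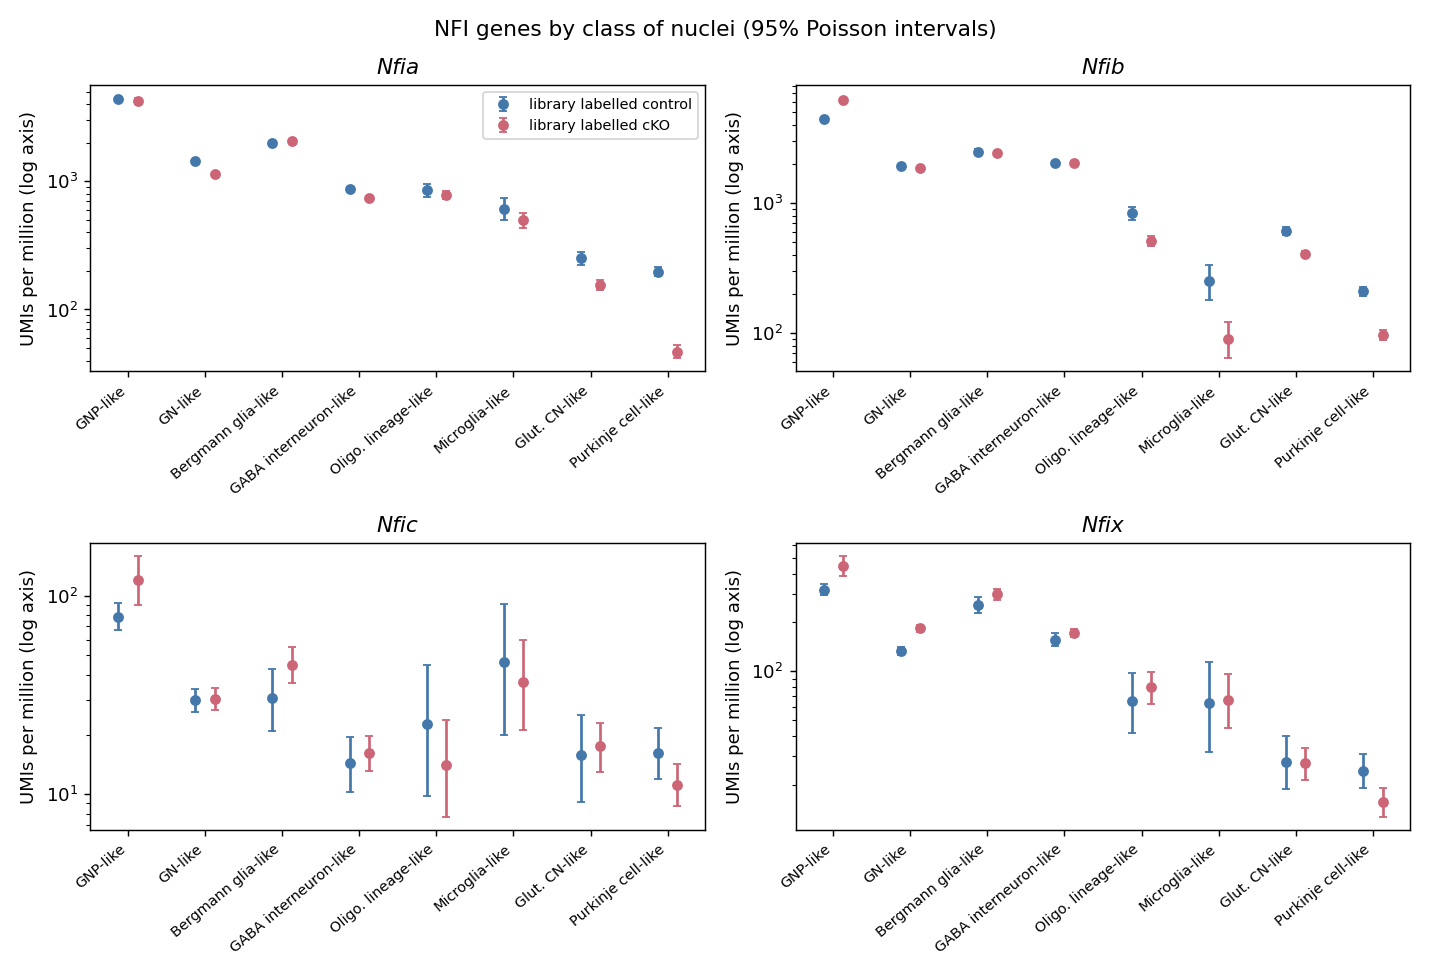
Level of each NFI gene (CPM, log axis) in 8 of the 9 classes with at least 50 nuclei in each library, with 95% Poisson intervals. Points are pooled nuclei of 1 library, and all 4 genes are highest in GNP-like nuclei.

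Between those ends the members differed in their order. For Nfia the control levels ran from Bergmann glia-like through GN-like (1425) to GABAergic interneuron-like (873) and oligodendrocyte lineage-like nuclei (853). The last pair did not differ beyond counting error (ratio 1.02, 0.908 to 1.16). For Nfib the average of the GABAergic interneuron-like class (2043) stood above that of GN-like (1914, ratio 1.07, 1.04 to 1.10). That order of averages held in the library labelled cKO (2046 and 1857). It did not hold for each cluster of the interneuron-like class. In control Nfib was at 5189 in the dividing cluster 13, 2556 in cluster 7 and 2326 in cluster 11, but at 850 in cluster 23 and 289 in cluster 10. Microglia-like nuclei had Nfia at 608 and 496 and Nfib at 249 and 89.6. Glutamatergic cerebellar nuclei (CN)-like neurons had the reverse, with Nfia at 251 and 156 and Nfib at 608 and 405. Within that class the small cluster 21 carried Nfib at 2421 and 1831, and cluster 15 at 362 and 225. For Nfic, no pair of neighbours in the control order differed beyond counting error.

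NFI levels varied widely within the GABAergic interneuron-like class. Its cluster 13, whose leading genes included Tfap2b, Pax2, Pax3, Sox2ot and Kirrel2, also carried the division genes Mki67 and Top2a (7.96 and 8.43 as log2 of CPM plus 5 over both libraries, against 9.22 and 9.80 in the dividing GNP-like cluster 14). It had Nfia at 3045 and 3060, Nfib at 5189 and 5341 and Nfix at 403 and 496. Against cluster 10 of the same class it was 19.04-fold higher in control for Nfia (16.2 to 22.5), 17.96-fold for Nfib (15.9 to 20.3) and 22.5-fold for Nfix (14.01 to 38.3). Nfic did not follow, with 9 and 6 UMIs in cluster 13 (control ratio to cluster 10 of 1.31, 0.509 to 3.14). Cluster 17, left unnamed although astrocyte markers matched it best, had Nfia at 2322 and 2070 and Nfib at 2618 and 2442.

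In the granule lineage the levels stepped down from progenitors to neurons. The GNP-like class joined cluster 14, which carried the division genes Top2a and Mki67, and cluster 18, led by Gli2 and Sfrp1. The GN-like class joined cluster 8, where Cntn2, an adhesion gene of early postmitotic granule neurons, was highest (330 and 467 CPM), and clusters 5, 3 and 0 with less Cntn2. Nfia went in control from 4010 in cluster 14 and 4892 in cluster 18 to 3393 in cluster 8, 1880 in cluster 5, 939 in cluster 3 and 966 in cluster 0. The dividing cluster was thus not its peak, with a ratio of cluster 18 to 14 of 1.22 (1.17 to 1.27).

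Nfib stayed high for longer than Nfia. In control it was at 4565 in cluster 14, 4175 in cluster 18 and 4805 in cluster 8, so cluster 8 stood above cluster 18 (ratio 1.15, 1.10 to 1.20), while Nfia was already lower there (0.694, 0.662 to 0.727). In the library labelled cKO, with 41 nuclei in cluster 18, that step was flat for Nfib (0.951, 0.878 to 1.03). From cluster 8 to cluster 0, Nfib was 4.33-fold lower in control (4.15 to 4.52) and 5.10-fold lower in the other library (4.90 to 5.32). Nfia was 3.51-fold (3.35 to 3.69) and 3.96-fold lower (3.76 to 4.17).

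Nfix had a course of its own among the neurons. In control it went from 350 in cluster 18 to 196 in cluster 8 and 136 in cluster 5, then stood at 219 in cluster 3, above cluster 5 (1.61, 1.34 to 1.93), and at 79.8 in cluster 0. In the library labelled cKO the step from cluster 5 to cluster 3 was not seen for Nfix, with a ratio of 0.915 (0.788 to 1.06). Over whole classes the GN-like level in control was 3.06-fold below the GNP-like level for Nfia (2.98 to 3.15), 2.30-fold for Nfib (2.24 to 2.37), 2.38-fold for Nfix (2.16 to 2.63) and 2.63-fold for Nfic (2.14 to 3.23). In the library labelled cKO these folds were 3.73 for Nfia, 3.33 for Nfib, 2.41 for Nfix and 3.98 for Nfic. Median-of-ratios scaling moved the control GN-to-GNP ratios to between 0.430 and 0.571, all still under 1.

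**Figure D2:**
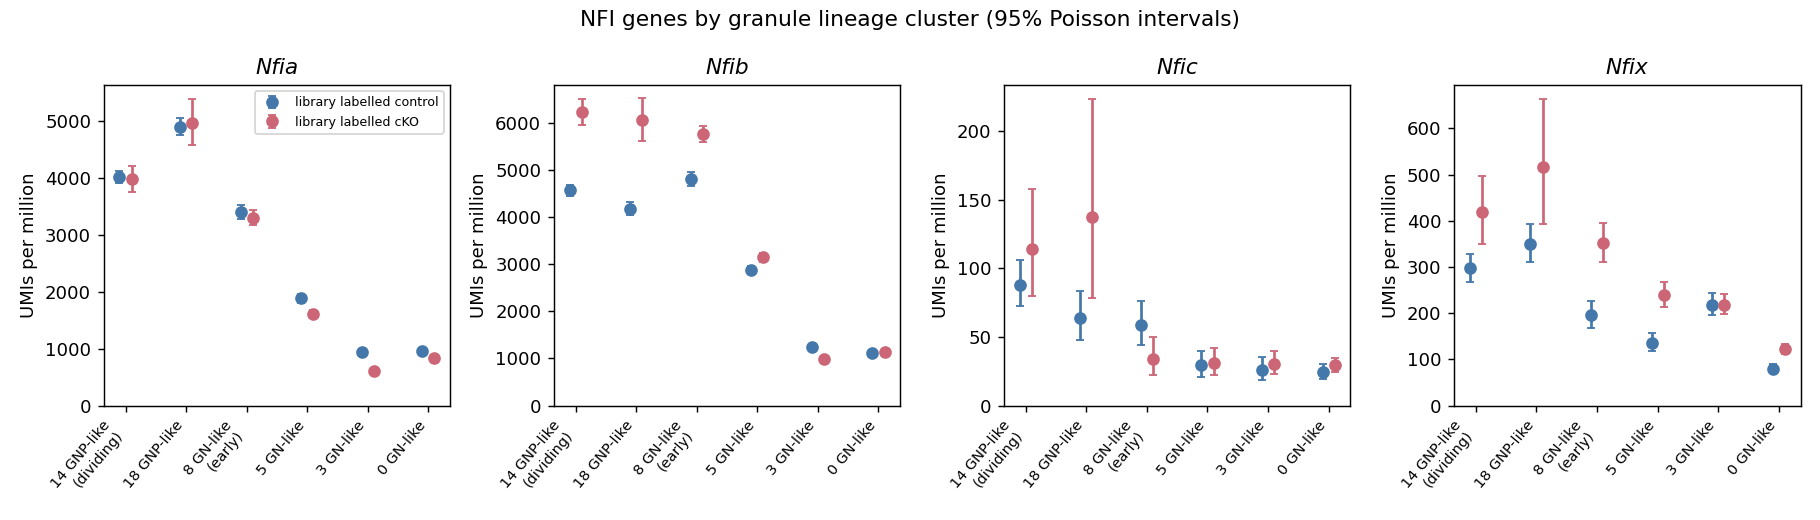
Level of each NFI gene (CPM, linear axis from 0) in the 6 clusters of the granule lineage, from dividing GNP-like (14) to GN-like (0), with 95% Poisson intervals. Nfib and Nfix lie higher in the library labelled cKO in clusters 14, 18 and 8, where the Nfia intervals overlap. Cluster 18 has 41 nuclei in that library.

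Most progenitor nuclei carried Nfia and Nfib together. To compare classes of different depth, each nucleus was reduced to 1000 UMIs by formula, as the average over all draws. At that depth 96.8% of control GNP-like nuclei had an Nfia UMI, 97.4% an Nfib UMI, 27.6% an Nfix UMI and 7.26% an Nfic UMI. Unthinned, at a median of 3721 UMIs, the shares were 99.8%, 100% (99.3 to 100), 69.5% and 24.7%. Both Nfia and Nfib were seen in 94.3% of control GNP-like nuclei at 1000 UMIs and in 95.6% in the library labelled cKO, against 53.1% and 46.2% of GN-like nuclei. In Purkinje cell-like nuclei the pair was seen in 4.09% and 0.916%. The share with an Nfia UMI in that class, which had the lowest Nfia level, was 9.24% and 3.62% at 1000 UMIs. Unthinned it was 32.7% and 19.7%, at medians of 9282.5 and 7887 UMIs.

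**Figure D3:**
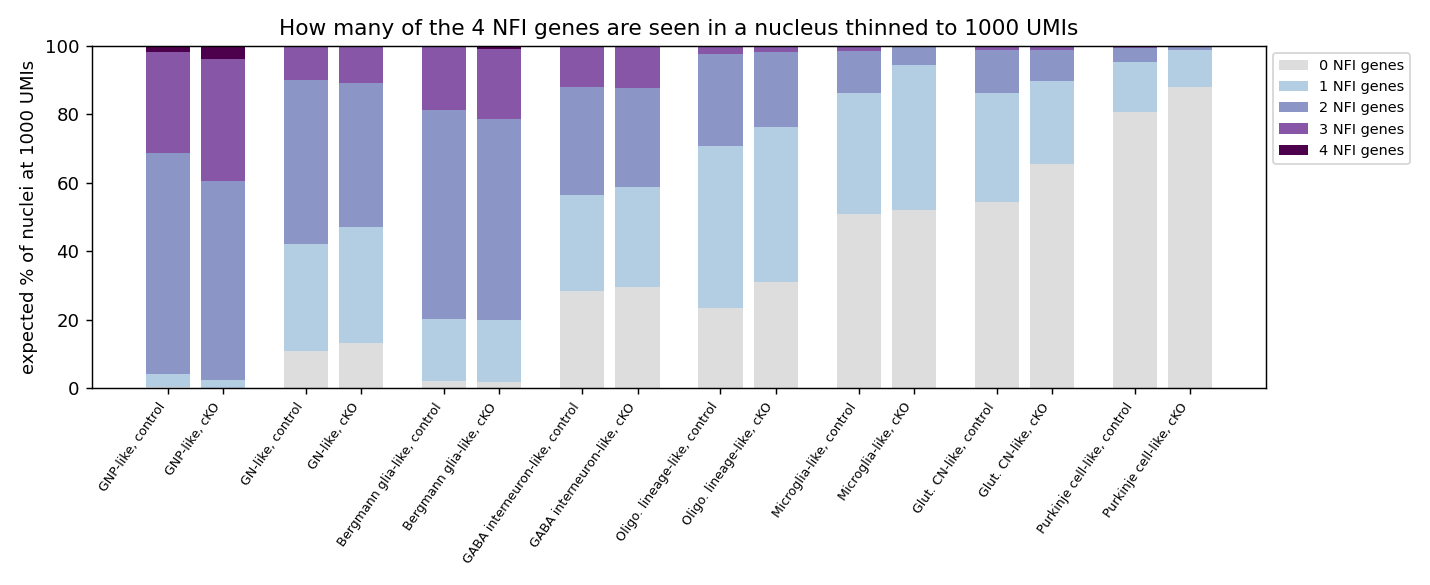
Expected share of nuclei in which 0 to 4 of the NFI genes have a UMI at a depth of 1000 UMIs, by class and library (stacked bars from 0 to 100%). Nuclei with none are 0.128% of control GNP-like and 80.7% of control Purkinje cell-like nuclei.

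Between the libraries, the whole-library levels were lower for 3 members, and much of that went with the mix of nuclei. Nfia was at 1367 CPM in control and 819 in the other library (ratio 0.599, 0.589 to 0.610), Nfib at 1785 and 1379 (0.773, 0.762 to 0.784), Nfic at 29.4 and 23.4 (0.794, 0.712 to 0.887) and Nfix at 143 and 139.8 (0.980, 0.935 to 1.03). Only Nfia passed 1.5-fold with an interval that excluded 1, as did 5.57% of the 20222 genes in the lower direction (4.59% in the higher one). GNP-like nuclei made up 11.03% and 1.77% of nuclei, and held 32.1% of the Nfia UMIs in control but 7.40% in the other library. With the classes held at their control share of UMIs, the ratios were 0.868 for Nfia, 1.06 for Nfib, 1.12 for Nfic and 1.28 for Nfix, so that only Nfia stayed below 1. Per nucleus, GNP-like nuclei held 17.5 Nfia UMIs in control and 15.8 in the other library.

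Within GNP-like nuclei, Nfib and Nfix were higher in the library labelled cKO while the interval of the Nfia ratio held 1. The ratio was 1.40 for Nfib (1.34 to 1.46), 1.40 for Nfix (1.18 to 1.64), 1.54 for Nfic on 162 and 52 UMIs (1.10 to 2.11) and 0.971 for Nfia (0.923 to 1.02). Only Nfic passed 1.5-fold, as did 6.14% of 11184 genes in the higher direction and 7.51% in the lower. The Nfib ratio was 1.36 in the dividing cluster 14 (1.29 to 1.44) and 1.45 in cluster 18 (1.34 to 1.57). It was 1.36 in nuclei with an Xist UMI and 1.43 in those with Y-linked UMIs only. The Nfic ratio was 1.70 and 0.874 in the same subsets and the Nfia ratio 0.917 and 1.15, so only Nfib and Nfix (1.255 and 1.49) kept 1 direction in both. With nuclei gated by markers in place of clusters, the ratios were 1.245 for Nfib, 1.29 for Nfix, 1.01 for Nfic and 0.910 for Nfia.

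Markers of other states moved in the same nuclei. The 9 granule neuron markers summed to 2593 and 3141 CPM in GNP-like nuclei (4 of 9 higher beyond counting error, 0 lower, none at 0), with Cntn2 at 50.8 and 167. The 9 progenitor markers summed to 2443 and 2230 (2 higher, 3 lower). The 6 Bergmann glia markers summed to 444 and 632 (3 of 6 higher) and the 7 parenchymal astrocyte markers to 327 and 579 (ratio 1.77, 1.53 to 2.05; 1 higher). The 6 GABAergic interneuron markers summed to 48.9 and 76.4 (1.56, 1.02 to 2.34). The sum of the 8 Purkinje cell markers went the other way, at 1497 and 1228 (0.820, 0.747 to 0.8996), although 2 of them were higher beyond counting error and 1 lower. In the 443 and 71 GNP-like nuclei without a Cntn2 UMI, the Nfib ratio was 1.36 (1.28 to 1.44), the Nfix ratio 1.51 (1.23 to 1.85) and the Nfia ratio 0.959 (0.898 to 1.02). The Nfic ratio there was 1.43 (0.917 to 2.17), so it no longer passed 1.5-fold and Nfix did. The part of the other markers in these ratios was not tested.

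Among GN-like nuclei Nfix was again higher and Nfia lower. Nfix was at 133 and 184 (ratio 1.38, 1.28 to 1.498), Nfia at 1425 and 1137 (0.798, 0.776 to 0.820), Nfib at 1914 and 1857 (0.970, 0.948 to 0.993) and Nfic at 29.8 and 30.3 (1.02, 0.845 to 1.22). None of the 4 passed 1.5-fold (0 of 4), against 2.74% of 15701 genes higher and 3.73% lower. By cluster, the Nfix ratio was 1.79 in cluster 8 (1.48 to 2.17), 1.76 in cluster 5 (1.46 to 2.12) and 1.54 in cluster 0 (1.33 to 1.78), but 1.00 in cluster 3 (0.863 to 1.16). Nfib went from 1.20 in cluster 8 (1.15 to 1.2495) and 1.09 in cluster 5 (1.05 to 1.14) to 0.798 in cluster 3 (0.749 to 0.851), and was at 1.02 in cluster 0 (0.975 to 1.06). Nfia was at 0.971 in cluster 8 (0.921 to 1.02), 0.856 in cluster 5, 0.861 in cluster 0 and 0.646 in cluster 3 (0.597 to 0.699). Nfic had 54 and 26 UMIs in cluster 8 (ratio 0.582, 0.350 to 0.946), while in each later cluster its interval held 1. Markers of other classes moved in the same GN-like nuclei. The 9 progenitor markers summed to 359 and 260 (0.724, 0.684 to 0.767; 7 of 9 lower), the 8 Purkinje cell markers to 464 and 649 (1.40, 1.34 to 1.46; 7 of 8 higher) and the 6 Bergmann glia markers to 333 and 429 (1.29, 1.22 to 1.36; 4 of 6 higher), none at 0. Their part in the NFI ratios was not tested.

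**Figure D4:**
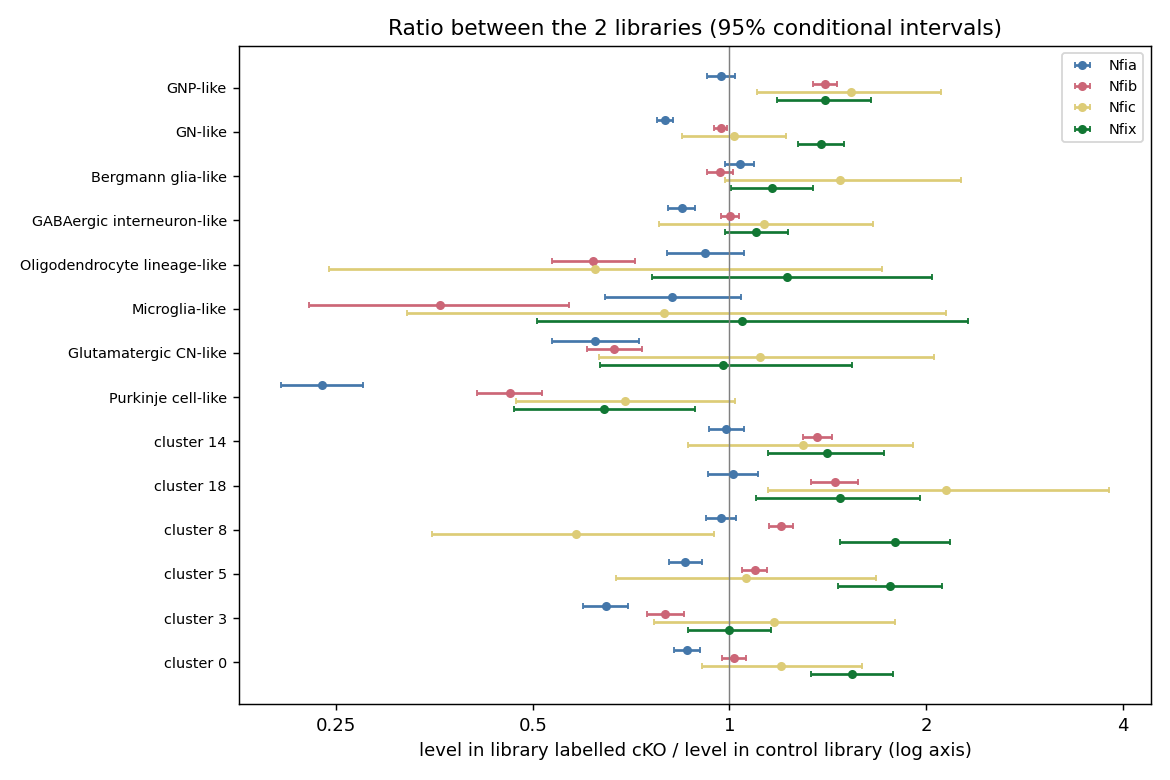
Ratio of the level in the library labelled cKO to that in control (log axis, line at 1) for each NFI gene by class and by granule lineage cluster, with 95% conditional intervals. Nfib lies at 1.40 in GNP-like and at 0.360 in microglia-like nuclei, and Nfia at 0.238 in Purkinje cell-like nuclei.

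In classes with little NFI the values were mostly lower in the library labelled cKO, and Pax6 was lower there too. Nfia in Purkinje cell-like nuclei was at 197 and 46.8 (582 and 284 UMIs; ratio 0.238, 0.206 to 0.275), and Nfib at 210 and 96.6 (0.461, 0.411 to 0.517). With nuclei gated by markers in place of clusters these ratios were 0.516 and 0.656. Pax6, a transcription factor of granule cells, was at 41.2 and 11.7 in the same nuclei, and 7 of the 9 granule neuron markers were lower beyond counting error (sum 325 and 180, none at 0). There were 4.77 Nfia UMIs per Pax6 UMI in control (3.92 to 5.85) and 4.0 in the other library (3.07 to 5.26), and the intervals overlapped. For Nfib the figures were 5.08 (4.18 to 6.22) and 8.25 (6.44 to 10.7). The part of free RNA in these levels was not tested.

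Counted over all 9 classes and 4 genes, 7 of 36 ratios were lower past 1.5-fold and 1 was higher. Of the 7, 3 were in Purkinje cell-like nuclei (Nfia, Nfib and Nfix at 0.643), where 4.04% of genes were lower by that rule. Nfia (0.622, 0.534 to 0.726) and Nfib (0.666, 0.605 to 0.734) were the pair in glutamatergic CN-like neurons, beside 3.47% of genes. That pair turned between subsets, at 0.397 and 0.362 in nuclei with an Xist UMI but 1.63 and 2.58 in those with Y-linked UMIs only. Nfix in Purkinje cell-like nuclei was at 0.459 and 1.12 in the same subsets. The CN-like class joined clusters 15 and 21, unlike in Nfib, with 81 and 29 control nuclei. Any Xist UMI in the raw counts kept a nucleus out of the Y-linked subset. The subsets can thus differ in depth, free RNA and cluster mix as well as in sex. The part of each in these turns was not tested. Nfib was at 0.618 in oligodendrocyte lineage-like nuclei (0.535 to 0.717), beside 4.23%, and at 0.360 in microglia-like nuclei on 43 and 39 UMIs (0.227 to 0.569), beside 3.32%. Pax6 was lower in these classes too, at 31.4 and 14.7 in CN-like, 42.5 and 20.2 in oligodendrocyte lineage-like and 104 and 13.8 in microglia-like nuclei. The 9 granule neuron markers did not follow it throughout. They summed to 556 and 478 in CN-like (0.861, 0.782 to 0.949) and 787 and 611 in microglia-like nuclei (0.777, 0.629 to 0.962), but to 961 and 968 in oligodendrocyte lineage-like nuclei (1.01, 0.889 to 1.14). The 9 progenitor markers were lower in sum in each of these classes, at 116 and 66.1 in CN-like nuclei (0.568, 0.451 to 0.716). In oligodendrocyte lineage-like nuclei they were at 241 and 131 (0.544, 0.411 to 0.724), and in microglia-like nuclei at 197 and 46.0 (0.234, 0.127 to 0.418). Their part in the NFI ratios was not tested. In Bergmann glia-like nuclei, with a high level of their own, the ratios were 1.04 for Nfia (0.984 to 1.09) and 0.968 for Nfib (0.924 to 1.01), with Nfix at 1.16 (1.01 to 1.34).

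The lower Nfia of GN-like nuclei was set against the Nfia of the nuclei that held least of it. Purkinje cell-like nuclei had 1.98 and 0.385 Nfia UMIs per nucleus, the unnamed cluster 19, with the lowest Nfia level of all clusters in both libraries, 0.778 and 0.224, and the shallow droplets 0.494 and 0.326. GN-like nuclei had 7.03 and 4.95. After taking off the Purkinje cell-like figure the GN-like Nfia ratio was 1.02, after taking off that of cluster 19 it was 0.856, and after that of the shallow droplets 0.801. The direction of the Nfia ratio thus turned under 1 of the 3 steps, and these steps were chosen after seeing the data. Under the same steps the GN-like ratio of Nfix ranged from 1.37 to 1.85, and for Nfib in GNP-like nuclei 1.42 to 1.54.

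Nfia shares its start with a gene on the opposite strand. E130114P18Rik (ENSMUSG00000048747; chr4:97568133-97778078, minus strand), which was picked after its values had been seen, overlaps the first 5345 bases of Nfia. It was at 6272 and 7022 CPM in GNP-like and at 1556 and 1237 in GN-like nuclei. Cluster 3 had 155 and 94.6 of it beside 939 and 607 of Nfia. The other overlapping genes had at most 4249 UMIs over both libraries (Gm11266, antisense within Nfib). Whether reads were assigned by strand is not given in the sources used here, and the part of the shared bases in either count was not tested.

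The genes whose levels followed the members most closely over 18 points (9 classes in 2 libraries) came from 10538 genes with at least 500 UMIs. For Nfia they were 2700081O15Rik (Pearson r of log2 levels 0.95), Cecr2 (0.93) and Nkd1, an inhibitor of Wnt signalling (0.93). For Nfib they were Tead1, a transcription factor of the Hippo pathway (0.96), Lncppara (0.93) and Sema6a, a semaphorin of migrating granule cells (0.93). For Nfix they were Cecr2 (0.95), Zic1 (0.94) and 2700081O15Rik (0.94), and for Nfic Gm16599 (0.93), Mllt10 (0.93) and Plxnb2 (0.91). Nfia correlated with Nfix at 0.93 and with Nfib at 0.84, and Nfib with Nfic at 0.51. These are descriptions, since the points share libraries, free RNA and the contrast of progenitors with all others.

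Genes tied to NFI by earlier work were read as 5 lists with 19 genes, chosen with results of these data known. The letters of the NFI site are shown in 3 promoters of such genes, in RefSeq sequence of GRCm38.p6. Each runs from 250 bases before to 50 after the start, on the gene's strand, with the letters TTGGC or their reverse complement GCCAA in capitals. Cntn2 (chr1:132542891-132543190, minus strand) and Efnb1 (chrX:99135811-99136110, plus strand) are genes of early migrating granule cells, and Gabra6 (chr11:42321023-42321322, minus strand) encodes a receptor subunit of mature ones.
Cntn2: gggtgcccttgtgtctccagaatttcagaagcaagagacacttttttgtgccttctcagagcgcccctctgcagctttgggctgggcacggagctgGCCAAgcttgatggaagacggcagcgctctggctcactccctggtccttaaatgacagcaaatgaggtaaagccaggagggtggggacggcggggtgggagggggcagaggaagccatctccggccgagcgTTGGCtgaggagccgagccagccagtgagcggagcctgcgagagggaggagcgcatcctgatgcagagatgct
Efnb1: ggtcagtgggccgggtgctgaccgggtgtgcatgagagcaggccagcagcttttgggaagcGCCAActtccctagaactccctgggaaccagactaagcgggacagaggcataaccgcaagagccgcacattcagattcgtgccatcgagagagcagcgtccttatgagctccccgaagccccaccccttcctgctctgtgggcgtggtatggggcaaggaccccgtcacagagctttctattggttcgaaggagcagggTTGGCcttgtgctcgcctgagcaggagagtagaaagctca
Gabra6: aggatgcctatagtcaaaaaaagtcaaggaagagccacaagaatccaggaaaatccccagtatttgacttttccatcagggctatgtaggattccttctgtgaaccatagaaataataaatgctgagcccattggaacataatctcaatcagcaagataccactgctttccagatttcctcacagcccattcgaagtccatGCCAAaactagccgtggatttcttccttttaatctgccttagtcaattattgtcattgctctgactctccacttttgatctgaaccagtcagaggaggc
Promoters were at hand for 15 of the 19 list genes, and 10 of their 16 promoters held such a match, as did 46.7% of all 32851 promoters. The full palindrome TTGGCNNNNNGCCAA was in 12 of all promoters (0.0365%) and in none of the list genes (0 of 16 promoters) or members (0 of 6). For Nfib no promoter was at hand.

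The early list did not move as a block. Among GNP-like nuclei, Cntn2 was 3.28-fold higher in the second library (50.8 and 167; 2.40 to 4.47), but at 111 and 97.5 in GN-like nuclei (ratio 0.877, 0.795 to 0.968). Cdh2, the N-cadherin gene of migrating neurons, was at 525 and 723 in GNP-like (1.38, 1.21 to 1.56) and 451 and 441 in GN-like nuclei. Efnb1, an ephrin, was lower in all nuclei (14.5 and 9.14; ratio 0.628, 0.532 to 0.743), and at 17.97 and 13.3 in GN-like nuclei (0.741, 0.571 to 0.961). In all nuclei 1 of these 3 passed 1.5-fold.

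The late list was higher in GN-like nuclei for 2 of its 3 genes, at low levels, where 2.74% of all genes were higher by that rule. Grin2c, an NMDA receptor subunit of mature granule cells, was at 10.8 and 21.2 (81 and 175 UMIs; 1.97, 1.502 to 2.59). Among the GN-like clusters it was highest in cluster 3 (37.5 and 80.5). In GNP-like nuclei Grin2c gave 63 control UMIs and 0 from the library labelled cKO. By the interval of the ratio this was at least 3.47-fold lower. A floor of 3 counts over the class, with no error on the control level, gave 4.39-fold. In control its GNP-like level (30.5 CPM) was above its GN-like one, and cluster 18 (50.8) was above cluster 3. Gabra6 had 10 and 37 UMIs in GN-like nuclei (1.33 and 4.48 CPM; 3.37, 1.64 to 7.59), and Wnt7a had 12 and 18 (1.36, 0.622 to 3.11).

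Of the other lists, the factors acting with NFI gave Etv1 at 62.6 and 89.0 in GN-like nuclei (1.42, 1.27 to 1.60), while Nfatc4 had 11 and 4 UMIs and was under the minimum. Of the 7 gliogenic and glial genes, 6 were measured in GN-like nuclei and 2 passed 1.5-fold, both higher. These were the glutamate transporter gene Slc1a3 (41.3 and 65.8; 1.59, 1.38 to 1.84) and Mmd2 (6.26 and 9.69; 1.55, 1.07 to 2.27). Bergmann glia-like nuclei had Slc1a3 at 4354 and 4309, Mmd2 at 84.8 and 104 and Hes1, of the next list, at 37.8 and 28.7. The part of their RNA in the GN-like levels was not tested. Of the 4 progenitor genes repressed by NFI, Hes1 alone passed in GN-like nuclei, on 6 and 18 UMIs (2.73, 1.04 to 8.40), and Ezh2 was at 103 and 92.9. In all, 5 of 17 measured list genes were higher past 1.5-fold in GN-like nuclei and 0 lower, beside 2.74% and 3.73% of all genes, with a median ratio of 1.16 against 0.986 for all genes. Of the 5, Slc1a3, Mmd2 and Hes1 had higher levels in Bergmann glia-like than in GN-like nuclei, while Grin2c and Gabra6 had lower ones. The 17 also join genes repressed by NFI with the other lists. In all nuclei 1 of 19 was higher (Gabra6) and 1 lower (Efnb1), beside 4.59% and 5.57%, with a median of 1.01 against 0.987. In GNP-like nuclei 12 were measured, with 1 higher (Cntn2), 1 lower (Grin2c), beside 6.14% and 7.51%, and a median of 1.08 against 0.9496, a median that stays the same with Grin2c at its bound.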

How the data were processed

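Per the labels and the study's methods, nuclei from frozen cerebella were captured with a 10x Genomics 3′ kit, and the authors made the matrices with bcl2fastq and Cell Ranger 7.0.1 on mm10 (GRCm38). The deposited values are raw UMI counts per gene and nucleus. The study corrected for free RNA with SoupX; the deposited counts were used here without that step. Whether introns were counted is not given in the sources used here. The libraries held 4857 and 6946 nuclei with medians of 4072 and 4161.5 UMIs.

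Nuclei over 25% mitochondrial UMIs (1 and 5) and the highest Scrublet scores (scanpy 1.11.5; 0.8% per 1000 barcodes, 189 and 386) were removed. The automatic Scrublet threshold marked 2 control nuclei and did not work there. Libraries were integrated and clustered in Seurat 5.3.0 (3000 variable features, 20 dimensions, resolution 0.8). A cluster took a class name with at least 3 detected markers at 2-fold over other clusters. How markers were scored was decided with the clusters in view. The members and lists were chosen with earlier results of these data known. The 9 classes with at least 50 nuclei in each library were compared, and 1 of them enters counts over classes but is not reported here.

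Counts were summed per class and library. Levels have exact Poisson, shares exact Clopper-Pearson and ratios exact conditional binomial intervals (95%, scipy 1.17.1), which cover counting error only. A gene was called when its ratio was at least 1.5-fold in either direction and its interval excluded 1, among genes with at least 20 UMIs. In libraries simulated with counting error alone, the rule recovered 88.5% of 200 genes changed 2-fold in the whole-library comparison and called 1.07% of the others. Differences between animals and the smaller depth of single classes were not simulated. The genes named were the members, the list genes, the 3 most similar genes per member (levels plus 5, log2) and the genes that mark free RNA; E130114P18Rik was added after its values were seen. Gene places came from GENCODE M21. Alternatives were other scaling, filters, sexes and clusterings.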

Additional observations from a re-analysis of the deposited data

Results flagged for a closer look

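Nfib and Nfix stood out because their ratios lay above 1 in some classes and below 1 in others, beyond counting error; with 1 library per group the difference between classes was not tested. For Nfib the highest such ratio was 1.40 in GNP-like nuclei and the lowest 0.360 in microglia-like nuclei, on 43 and 39 UMIs, where Pax6 had 18 and 6 UMIs. For Nfix the ends were 1.40 in GNP-like nuclei and 0.643 in Purkinje cell-like nuclei, on 72 and 95 UMIs, where the ratio turned to 1.12 in nuclei with Y-linked UMIs only.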

How the results depend on the processing

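Of 511 recomputed values, 376 stayed within the counting interval of the main value and 121 lay outside it. A further 14 changed direction, which was counted only where the main interval excluded 1. Other crossings of 1 are not among the 14, such as Nfia in microglia-like nuclei (0.817, and 1.36 with Y-linked UMIs only). The causes were not tested. For the whole library, the ratios of the library labelled cKO to control of Nfia and Nfib were 0.611 and 0.787 with median-of-ratios scaling, 0.571 and 0.731 in nuclei with an Xist UMI, and 0.621 and 0.807 in those with Y-linked UMIs only, where Nfix was at 0.928. With classes at their control share they were 0.868 for Nfia and 1.28 for Nfix, and Nfib (1.06) and Nfic (1.12) changed direction. For the granule lineage, Nfia and Nfib were at 0.660 and 0.890 with that scaling, 0.609 and 0.801 (Xist), 0.643 and 0.875 (Y-linked), 0.646 and 0.875 (resolution 0.4) and 0.649 and 0.865 (marker gates). With Purkinje cell-like UMIs taken off, the lineage ratios were 0.734, 0.942, 2.40 and 1.38 for Nfia, Nfib, Nfic and Nfix. With those of cluster 19 taken off they were 0.654, 0.888 and 1.03 for Nfia, Nfib and Nfic, and with those of the shallow clusters Nfib was at 0.828. The control GN-to-GNP ratios of Nfia, Nfib, Nfic and Nfix were 0.430, 0.571, 0.50 and 0.552 with that scaling. For Nfia and Nfib they were 0.360 and 0.478 at resolution 0.4, where Nfix was at 0.348, and 0.347 and 0.460 with marker gates. Nfib was at 0.410 in nuclei with Y-linked UMIs only.

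In nuclei with Y-linked UMIs only, Nfia in glutamatergic CN-like (1.63), Nfib in GN-like (1.04) and CN-like (2.58), Nfic in GNP-like (0.874) and Nfix in Bergmann glia-like (0.915) and Purkinje cell-like nuclei (1.12) changed direction. So did Nfib in GN-like nuclei at resolution 0.4 (1.00, just above 1) and with cluster 19 taken off (1.04). With Purkinje cell-like UMIs taken off, Nfia in GABAergic interneuron-like (1.27), GN-like (1.02) and CN-like nuclei (2.23) and Nfib in GN-like nuclei (1.13) did so too. Ratios past 1.5-fold numbered 3 higher and 3 lower with Y-linked UMIs only, 2 higher at resolution 0.4, 0 higher with merged libraries, and 0 higher and 4 lower with marker gates. The share of all genes past 1.5-fold under these settings is not given here. No excess or lack of NFI ratios can be read from these counts. At 2000 UMIs the control GNP-like shares of Nfia, Nfib, Nfic and Nfix were 99.8%, 99.9%, 14.2% and 46.9%, and unthinned 99.8%, 100%, 24.7% and 69.5%. With the looser fold planned for the lists, genes past it numbered 6 higher and 4 lower in all nuclei and 1 lower in GN-like nuclei. Past 2-fold, 0 were lower in all nuclei and 2 higher in GN-like nuclei, and with at least 50 UMIs 3 were higher in GN-like nuclei. The share of all genes passing these other limits is not given here, so no excess or lack of list genes can be read from these counts.

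No paired analysis was possible because each group is 1 library. Nfic, with 605 and 706 UMIs, was limited by depth in most classes. Forcing the NFI genes into the clustering features, leaving out nuclei with a Cntn2 UMI and taking off UMIs were chosen after seeing the data.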
